A study of Drosophila melanogaster with 15 samples.

Results

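A total of 111 genes stood at another level at day 20 than at day 10, and close to their day 20 level up to day 40, in nuclear RNA of fly photoreceptors. Of these, 39 were higher at day 20 than at day 10 and are called risers, and 72 were lower and are called fallers. They were chosen from the 7635 genes of the deposited CPM table (the read pairs of a gene scaled to the total of the genes in that table). Each value was taken as log2(CPM + 1) minus the median over genes of its library, called the centred log2 value, and averaged per age. A member had a mean CPM of at least 10 (5791 genes did), a day 20 mean at least 0.5 from the day 10 mean, and means at days 25, 30 and 40 that each lay within 0.35 of day 20. Before the last condition, 127 genes were higher and 195 lower by at least 0.5. The centring matters, since the column median of log2(CPM + 1) was 0.13 to 0.25 higher at the later ages than at day 10: without it the same rule gave 104 risers and 27 fallers. Because all 5 ages chose the members, their course over age is given as a description with no test.

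The libraries came from male Drosophila melanogaster aged 10, 20, 25, 30 and 40 days after eclosion, with 3 libraries per age and 2 at day 30. The labels call the flies WT. All of them, at every age, were w flies with the transgenes UAS-GFP-Msp300KASH at attP2 and rh1-GAL4 and the allele ry[506], kept on a light and dark cycle, and the labels differ between groups in age alone. Each library pooled heads of many flies. The Rh1 driver is active in the outer photoreceptors R1 to R6 and, as the study describes, also in antennae, so that mechanosensory nuclei can be present, and the GFP on the nuclear envelope let nuclei be pulled down with an antibody. Another day 30 library, which the study discarded for poor mapping, was not used to choose members.

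Outer photoreceptors detect light with rhodopsin, which acts through a G protein, a phospholipase and the TRP channels inside stacked microvilli called the rhabdomere, and they signal to the brain with histamine. They do not divide in the adult. Each library came from other flies, so that ages are compared between animals and no cell was followed over time. Nuclear RNA holds unspliced and newly made transcripts as well as mature ones. Fewer nuclei of a cell type and less RNA per nucleus cannot be told apart in such bulk samples.

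The libraries used held 6213255 to 19819118 gene counts. The 9 outer photoreceptor markers summed to between 82259 and 141891 CPM over all gene counts, led by ninaE (rhodopsin 1) at 23808 to 49161, so the defining genes of the labelled cells were present at high levels. The 7 mechanosensory markers summed to 114 to 161 CPM, with nan at or near 0. Within that list edgeR called nompB higher and nompA and Rfx lower for days 20 to 40 against day 10. Sums of the 5 glial markers were 473 to 749 CPM. The 5 pigment and cone cell markers, mostly w, summed to means of 1192, 2295, 2668, 1852 and 1294 CPM from day 10 to day 40. Of these, w had 972, 2054, 2453, 1620 and 1086 CPM. The paper lists w as a marker on the UAS transgene, so w reads need not come from pigment cells. Their source was not tested. Age means were 6.955 to 9.19 CPM for st, 22.2 to 29.4 for bw and 150 to 186 for ct. Crys fell at each later age from 36.1 CPM at day 10, and edgeR called it lower for days 20 to 40. The 5 fat body and female markers summed to 102, 135, 137, 208 and 199.6 CPM. The part of these other cell types in the member values was not tested. Read pairs on no annotated feature, per 100 gene counts, numbered 60.7 to 103 at day 10, 64.2 to 84.6 at day 20, 67.6 to 76.0 at day 25, 112 in both day 30 libraries and 42.4 to 56.4 at day 40. Replicate numbers are those of the column names, and nothing in the labels says that replicates were separate cohorts of flies.

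**Figure D1:**
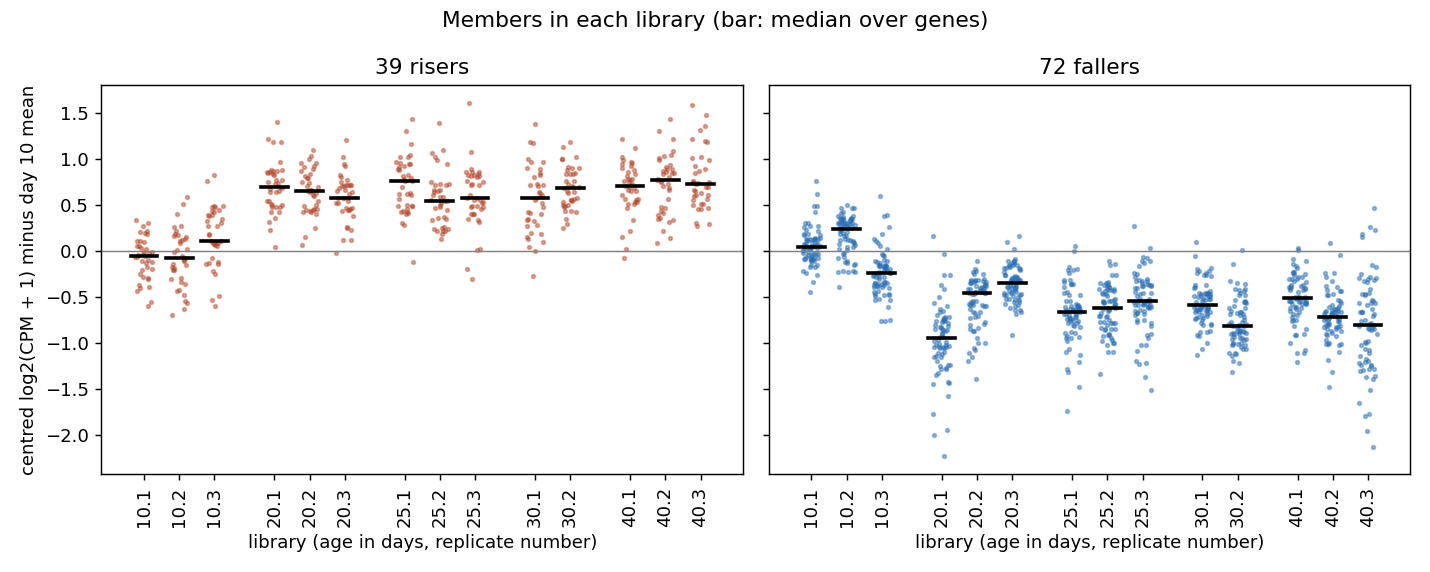
Centred log2(CPM + 1) of each member minus its own day 10 mean (vertical axis) in each of the 14 libraries (horizontal axis, age and replicate number), with risers on the left and fallers on the right. Points are genes and black bars the median over genes. The riser medians of the later libraries lie between 0.54 and 0.77, and the faller medians are widest apart at day 20, where replicate 1 is at -0.95 and replicate 3 at -0.35.

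Over the age course the median riser stood 0.59 above its day 10 mean at day 20, 0.64 at day 25, 0.64 at day 30 and 0.74 at day 40 on the centred log2 scale. The median faller stood at -0.58, -0.60, -0.69 and -0.66 at the same ages. Across the 5791 genes of mean CPM of at least 10 these medians were -0.03, -0.02, -0.06 and -0.05. The plot of members by library shows how even this was within an age. For risers, the 3 day 20 libraries had medians of 0.69, 0.66 and 0.58 above the day 10 mean. For fallers, the 3 day 20 libraries had medians of -0.95, -0.46 and -0.35, so that replicate 1 lay well below replicates 2 and 3. Day 10 replicate 3 was the lowest day 10 library for fallers, at -0.24, against 0.04 in replicate 1 and 0.24 in replicate 2. It was also the highest day 10 library for risers, at 0.11, against -0.05 in replicate 1 and -0.08 in replicate 2. Every library of days 25, 30 and 40 had its faller median between -0.52 and -0.81.

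Pairs on no feature moved with the fallers in some of these libraries and not in others. Day 10 replicates 1 and 2 had 103 and 100.4 such pairs per 100 gene counts, against 60.7 in replicate 3, where fallers were lower. Day 20 replicate 1, with the lowest fallers, had 64.2, against 84.6 and 81.4 in replicates 2 and 3. The 2 day 30 libraries had 112 each, more than any day 10 library, and their fallers were low nonetheless (medians -0.59 and -0.81). The part of this measure in the faller values was not tested.

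**Figure D2:**
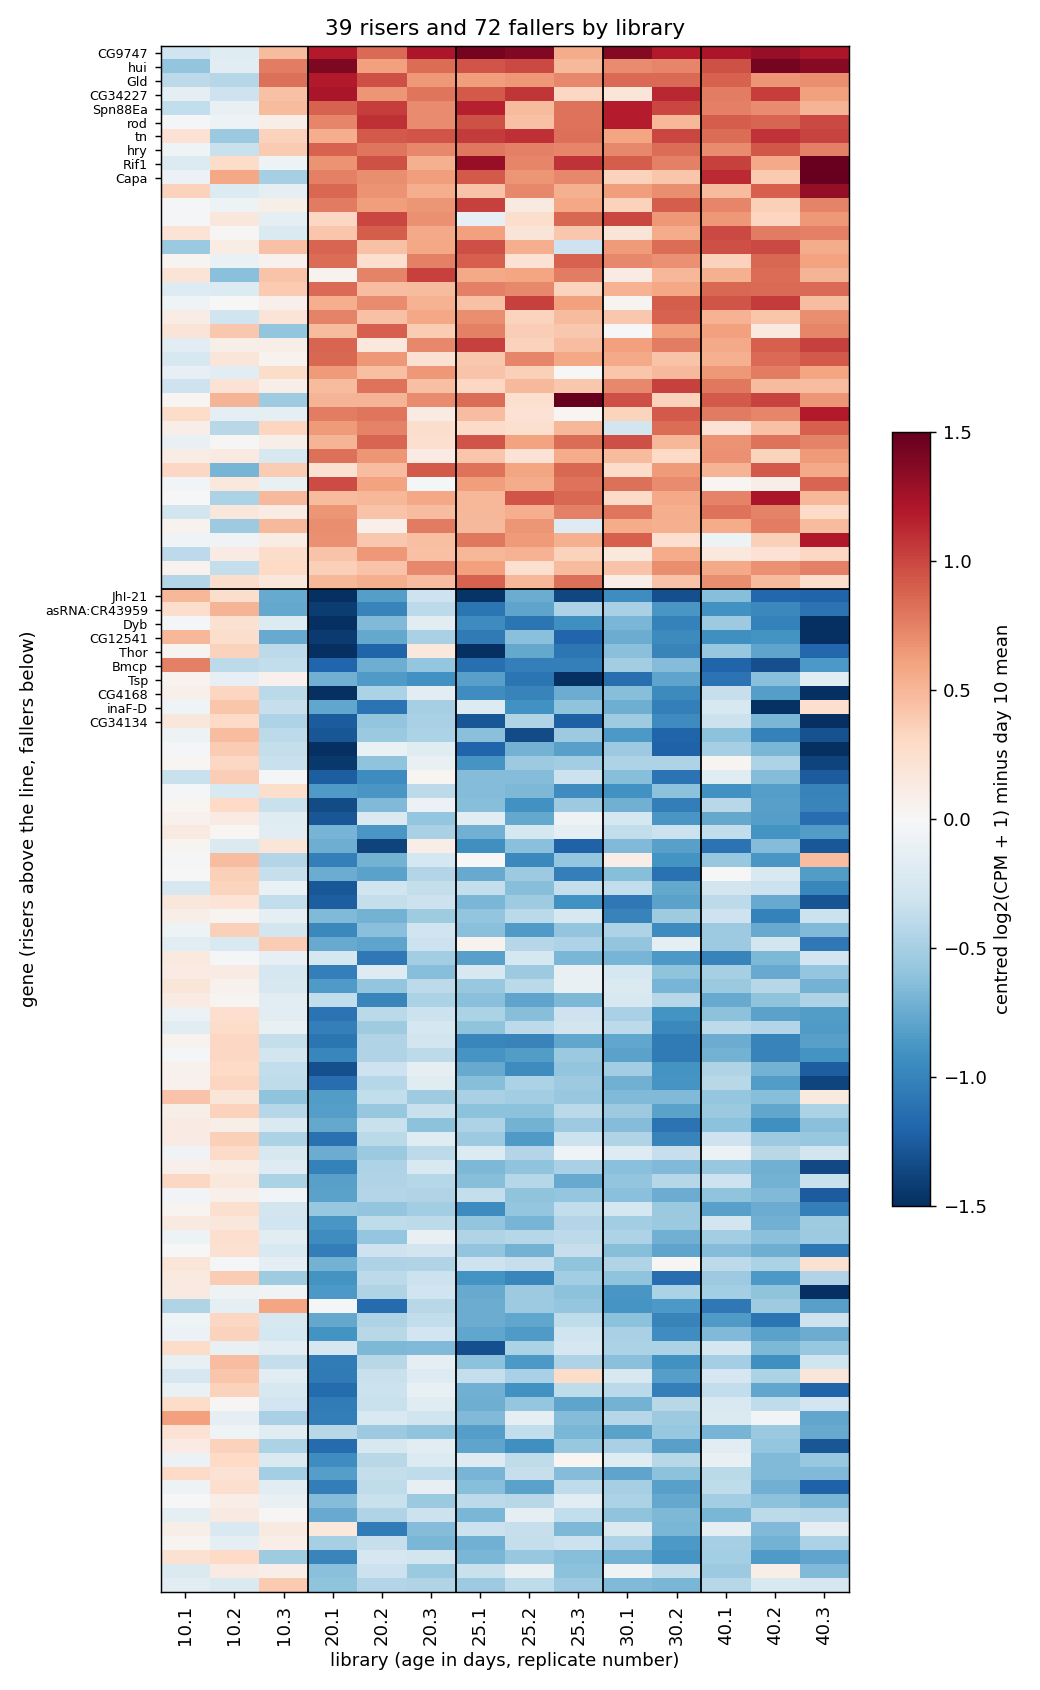
Heat map of centred log2(CPM + 1) minus the day 10 mean (colour, red higher and blue lower, scale ending at -1.5 and 1.5) for each member (rows, risers above the line and fallers below, each ordered by the size of the shift at day 20, with names for the 10 largest in each direction) in the 14 libraries (columns, ordered by age and replicate number). The column of day 20 replicate 1 is the darkest of the day 20 columns among fallers, and the column of day 40 replicate 3 is dark in part of the rows.

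Separation of single libraries varied among members. On the centred scale, all 11 later libraries lay above all 3 day 10 libraries for 14 of 39 risers (2.07% of the 5791 genes did so). They lay below all 3 day 10 libraries for 24 of 72 fallers (2.71% of the 5791 genes). On the deposited CPM without centring, which lifts the typical gene in later libraries, 17 risers (background 5.21%) and 14 fallers (background 1.12%) were separate in this way. At single ages, the day 20 libraries were all above day 10 for 26 risers (background 4.89%), those of day 25 for 24 (10.7%), those of day 30 for 26 (13.4%) and those of day 40 for 31 (14.8%). They were all below day 10 for 37 fallers at day 20 (background 6.01%), 48 at day 25 (10.6%), 57 at day 30 (19.3%) and 47 at day 40 (17.1%). Since the rule chose genes for these contrasts, nothing is read from the excess over the background. The separate risers on the centred scale were CG9747, rod, tn, hry, Rif1, Act42A, CG10211, CG7255, CG17121, Spn27A, CG4554, CG5167, raw and TwdlG. Among fallers they included Bmcp, Tsp, goe, Cbl, capu, Pur-alpha, DopEcR, sesB and zyd.

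The quasi-likelihood test of edgeR over 10678 genes, with Benjamini-Hochberg adjustment, gives the background for calls. It called 0.00937% of genes between days 20 and 10, which is 1 gene and no member, while 33 risers (background 4.01%) and 58 fallers (background 4.09%) had an unadjusted p under 0.05 in their own direction. In this contrast DESeq2 called 7 members (0.459% of its genes), edgeR with no filter on low counts 21 (0.842%), and limma-voom 0. For the mean of days 20 to 40 against day 10, where it called 5.09% of genes in either direction, it called 17 of 39 risers higher (background 2.38%) and 39 of 72 fallers lower (background 2.71%). These calls moved with the libraries used: without day 10 replicate 1 they were 2 risers and 7 fallers (127 of 10647 genes called), and without day 10 replicate 2 they were 4 and 7 (113 of 10633 genes). Without day 30 replicate 2 they were 10 and 26 (326 of 10602 genes), while DESeq2 called 30 and 55 (960 of 9846 genes). For day 40 against day 10, with 10.4% of genes called in either direction, it called 21 risers (background 5.78%) and 26 fallers (background 4.64%). Between days 40 and 20 it called 1.13% of genes (0.73% higher and 0.403% lower), and 0 members. No member had an unadjusted p under 0.05 there in its own direction, and DESeq2 and limma-voom called 0 members too. The rule used the same values in each case, and nothing is read from these counts. The members nearest the threshold were Tbcc and Spp, both at 0.50 above day 10, with CCT2 at 0.497 and Shark at 0.496 just outside. Among fallers zyd (-0.500) and CG3719 (-0.501) lay just inside, and Krn and kar (-0.498 each) just outside.

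Of the risers, CG9747 had the largest difference. It encodes a protein of the fatty acid desaturase family and lies at 3R:30185423-30191252 (BDGP6, minus strand). Its 3 day 20 libraries had 47.5, 32.8 and 45.2 CPM, against 13.2, 13.9 and 28.2 CPM at day 10. All 3 day 20 values exceeded all 3 day 10 values. Its mean was 18.4 ± 8.49 CPM at day 10, 41.8 ± 7.93 at day 20, 45.2 ± 15.2 at day 25, 51.99 ± 1.96 at day 30 and 48.0 ± 4.25 at day 40 (SD, n = 3, and n = 2 at day 30). On the centred log2 scale it was 1.08 higher at day 20, and 0.93 to 1.32 higher when any single library of these 2 ages was left out.

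Among genes of extracellular enzymes and their inhibitors, Spn88Ea and Spn27A were risers. Both encode serpins, inhibitors of serine proteases that act upstream of the Toll receptor. Spn88Ea had 91.4, 89.3 and 75.7 CPM at day 20, against 30.6, 35.5 and 67.2 CPM at day 10, which is 0.88 higher on the centred log2 scale. The groups did not overlap at day 20, but the lowest later library, day 40 replicate 3 at 64.4 CPM, was below the highest day 10 library. Gld, which encodes glucose dehydrogenase, had 30.7, 22.9 and 19.4 CPM at day 20, against 7.59, 7.16 and 23.2 CPM at day 10. Here day 10 replicate 3 stood within the day 20 range, and the other 2 day 10 libraries far below it. CG10211, a haem peroxidase family gene, had 72.5, 57.3 and 62.4 CPM at day 20, against 33.4, 31.2 and 43.8 CPM at day 10, and all 11 later libraries (lowest 45.4, median 62.4, highest 84.3 CPM) were above these. CG4757, a carboxylesterase family gene, had 120.3, 119 and 111 CPM at day 20, against 63.8, 64.4 and 85.2 CPM at day 10, with no overlap between those ages. Among the later ages it dipped to 82.7 CPM in day 30 replicate 1.

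**Figure D3:**
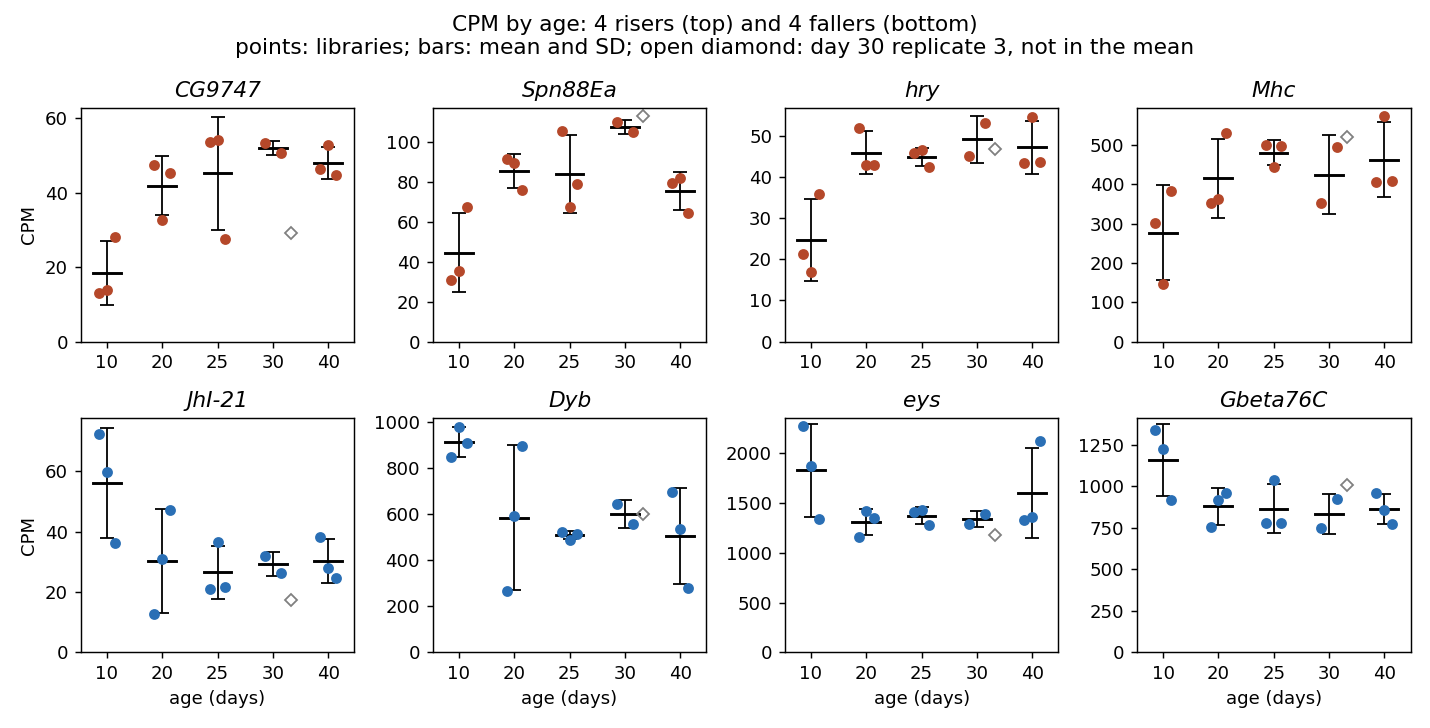
CPM (vertical axis, from 0) against age in days (horizontal axis) for the risers CG9747, Spn88Ea, hry and Mhc (top) and the fallers JhI-21, Dyb, eys and Gbeta76C (bottom). Points are libraries, bars the mean and SD of an age (n = 3, and n = 2 at day 30), and open diamonds day 30 replicate 3, which is in no mean. The 11 later points of hry, at 42.4 to 54.4 CPM, lie above its 3 day 10 points, at 17.0 to 35.9 CPM, while Dyb at day 20 runs from 265 to 894 CPM.

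The transcription factor gene hry (hairy), a repressor of the basic helix-loop-helix family, was the riser with the flattest course after day 20. It had 51.9, 42.9 and 43.0 CPM at day 20, against 21.2, 17.0 and 35.9 CPM at day 10. Its age means from day 20 onward stayed within 0.04 of day 20 on the centred log2 scale, and all 11 later libraries were above all day 10 libraries. It was the only member in the list of 12 activity-regulated transcription genes, of which 11 were tested. That list had 3 genes called higher and 0 lower for days 20 to 40 against day 10, beside 2.38% of all genes called higher, and the values of hry itself were used by the rule.

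A group of risers is known for work on chromosomes, put together after their values were seen. The genes are rod, whose product sits at kinetochores, Rif1, which sets the timing of DNA replication, and MCPH1 (microcephalin), which acts in chromosome condensation. For rod the day 20 libraries had 15.0, 17.2 and 13.7 CPM, against 6.78, 6.22 and 9.07 CPM at day 10. For Rif1 they had 9.94, 10.7 and 8.24 CPM, against 3.84, 5.56 and 5.36 CPM. In both genes all 11 later libraries were above the 3 day 10 libraries, and MCPH1 lay at 0.58. These are low levels, at which 3 counts correspond to 0.151 to 0.483 CPM depending on the library.

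Of the list of muscle markers, Mhc was a riser. With tn, up and Obsc, which are in no list and were put beside it after their values were seen, it makes 4 risers known from muscle. Mhc, the myosin heavy chain of all muscles, had 351, 362 and 531 CPM at day 20, against 301, 146 and 383 CPM at day 10. The groups overlapped, and day 10 replicate 2 was far below the others: without it the difference of Mhc was 0.19 instead of 0.54 on the centred log2 scale. The gene tn (thin), whose product keeps sarcomeres intact, had 17.9, 20.6 and 22.4 CPM at day 20, against 11.2, 5.94 and 15.2 CPM at day 10, with no overlap. It was 0.80 higher, and 0.52 without day 10 replicate 2. The other muscle risers were up (troponin T), at 0.51 and at 0.24 without day 10 replicate 2, and Obsc (obscurin, a giant sarcomere protein), at 0.61 and at 0.29 without it. Tm2 (tropomyosin) missed the level condition narrowly, with a later age 0.357 from day 20.

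The 4 muscle markers (Mhc, Mlc2, Act88F and Tm2) together reached 398 to 684 CPM over all gene counts in the later libraries and 343, 172 and 440 CPM in day 10 replicates 1, 2 and 3. Act88F was near 0 (highest 1.49 CPM). In the later libraries the 4 muscle risers had medians of 0.39 to 0.93 above the day 10 mean and the 35 others 0.52 to 0.76. In day 10 replicate 2 the median of the muscle risers was -0.60, while the 35 other risers had a median of -0.06. The part of muscle RNA in the muscle risers was not tested.

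The highest riser after Mhc was raw, which restrains JNK signalling in the embryo. It had 159, 180.2 and 125 CPM at day 20, against 83.9, 88.98 and 117 CPM at day 10, and the later ages reached 191 ± 32.3 CPM at day 30 (SD, n = 2). Capa, the precursor of the capa neuropeptides, had 47.6, 40.2 and 40.5 CPM at day 20, against 20.9, 33.1 and 19.0 CPM at day 10. At day 40 its libraries spread widely, from 37.3 to 78.8 CPM. CG7300 had 83.7, 54.4 and 64.0 CPM at day 20, against 24.7, 38.6 and 60.8 CPM at day 10, so that these ages overlapped. The small genes hui (17.3, 8.35 and 10.6 CPM at day 20, against 2.73, 3.86 and 10.6 CPM at day 10) and CG34227 (20.2, 11.6 and 13.9 CPM, against 5.77, 4.81 and 11.1 CPM) shared a feature with Gld. In all 3 genes day 10 replicate 3 was the day 10 library that came close to the day 20 range or reached it.

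The remaining risers lay between 0.50 and 0.69. They included cactin, a regulator of NF-kappaB signalling, LUBEL, the ligase that makes linear ubiquitin chains, Nep1, a neprilysin peptidase, SerRS, the seryl-tRNA synthetase, TwdlG, a cuticle protein, Act42A, a cytoplasmic actin, and Tbcc, a tubulin folding cofactor. All but 1 riser (asRNA:CR45139) were protein-coding. Most were expressed at low levels: the median of their mean CPM was 20.6, against 43.0 over all genes of mean CPM of at least 10, and 3 of 39 had a mean of at least 100 CPM (7.69%, against 28.7%).

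Of 28 measured genes in the list of phototransduction regulation and vision, 2 were fallers, Gbeta76C and rtp, beside 72 of 5791 over all genes. Gbeta76C encodes the eye-specific G protein beta subunit that couples rhodopsin to its effector. It had 755, 921 and 962 CPM at day 20, against 1339, 1223 and 916 CPM at day 10. Day 10 replicate 3 lay inside the day 20 range, and the other 2 day 10 libraries above it. The gene rtp (retinophilin), whose product holds the myosin NINAC in the rhabdomere, had 461, 485 and 606 CPM at day 20, against 707, 824 and 597 CPM at day 10. The 5 age means of rtp were 709 ± 114, 518 ± 77.8, 533 ± 30.3, 523 ± 37.2 and 518 ± 31.4 CPM from day 10 to day 40 (SD, n = 3, and n = 2 at day 30), among the flattest later courses of the fallers. For days 20 to 40 against day 10 edgeR called 0 genes of the list higher and 5 lower, beside 2.71% of all genes. The 5 were Cds, Cpn, Ggamma30A, Gbeta76C and rtp, and the values of Gbeta76C and rtp were used by the rule. The median day 20 shift of the 28 genes of the list was -0.24, against -0.03 over all genes. That of the 9 outer photoreceptor markers was -0.04.

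In the list of rhabdomere and polarity genes 2 of 17 measured genes were fallers, eys and baz, beside 72 of 5791 over all genes. The product of eys (eyes shut) is secreted to open the space between rhabdomeres. It lies at 2L:2311680-2358944 and overlaps CG9967 on the other strand, which strand-specific counting separates. In its day 20 libraries eys had 1161, 1416 and 1351 CPM, against 2273, 1869 and 1341 CPM at day 10, and day 40 replicate 3 was back at 2123 CPM. The gene baz encodes the polarity protein Par-3, which marks the apical side of the photoreceptor. It had 912, 1137 and 1271 CPM at day 20, against 1529.9, 1754 and 1153 CPM at day 10, with day 10 replicate 3 again inside the day 20 range. For days 20 to 40 against day 10 edgeR called baz lower and cora higher in this list, and the values of baz were used by the rule.

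Further fallers with a known place in photoreceptors were t, oc and inaF-D. The enzyme encoded by t (tan) frees histamine, the photoreceptor transmitter, from carcinine. It had 260.2, 377 and 474 CPM at day 20, against 489, 568 and 435 CPM at day 10, and 204 CPM in day 40 replicate 3. The homeodomain factor gene oc (orthodenticle), which acts in photoreceptor fate and rhodopsin choice, had 322, 466 and 576 CPM at day 20, against 619, 706 and 494 CPM at day 10. Both genes overlapped between the ages, through day 20 replicate 3 and day 10 replicate 3. For inaF-D, a gene of the inaF locus, the libraries had 14.9, 10.2 and 17.2 CPM at day 20, against 20.2, 28.0 and 20.1 CPM at day 10, with no overlap. Its day 40 replicate 3 reached 29.1 CPM, and it shares sequence span with inaF-B and inaF-C on the same strand, so that its counts are uncertain. Ekar, a glutamate receptor of photoreceptor terminals, and Ir68a, an ionotropic receptor known from humidity sensing, were fallers as well, at -0.51 and -0.55.

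Amino acid transport and the brake on translation make up another group, put together after the values were seen. JhI-21, a transporter of large neutral amino acids, had the largest difference of any member. It had 12.7, 30.8 and 47.3 CPM at day 20, against 72.5, 59.8 and 36.4 CPM at day 10. The day 20 libraries spread widely and overlapped day 10, and the difference of -1.13 became -0.57 without day 20 replicate 1. Thor, the 4E-BP protein that holds back cap-dependent translation, had 24.8, 28.4 and 79.4 CPM at day 20, against 63.2, 76.4 and 56.5 CPM at day 10. Its day 20 replicate 3 was above every day 10 library. At days 25 to 40 Thor stayed between 20.8 and 48.2 CPM, below all 3 day 10 libraries. The amino acid transporter genes path and CG5535 were fallers too, at -0.64 and -0.74.

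Genes of mitochondrial energy metabolism appeared 5 times among the fallers, a group again formed after the values were seen. These were Bmcp, a carrier of the uncoupling protein family, sesB, the ADP/ATP carrier, sun, a subunit of ATP synthase, ND-ASHI of complex I and UQCR-14 of complex III. In each of them all 11 later libraries lay below the 3 day 10 libraries on the centred scale. This held for 24 of all 72 fallers and 2.71% of the 5791 genes, and the rule used these values. No fixed list covered such genes, so the 5 were not set against a background. For Bmcp the day 20 libraries had 38.2, 46.7 and 55.0 CPM, against 123, 53.2 and 66.9 CPM at day 10. In CPM these ages overlap slightly, and day 10 replicate 1 is far above replicates 2 and 3. The other members of the group had differences of -0.61 to -0.51. ND-ASHI, sun and UQCR-14 were low genes, with means of 10.5 to 15.2 CPM.

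**Figure D4:**
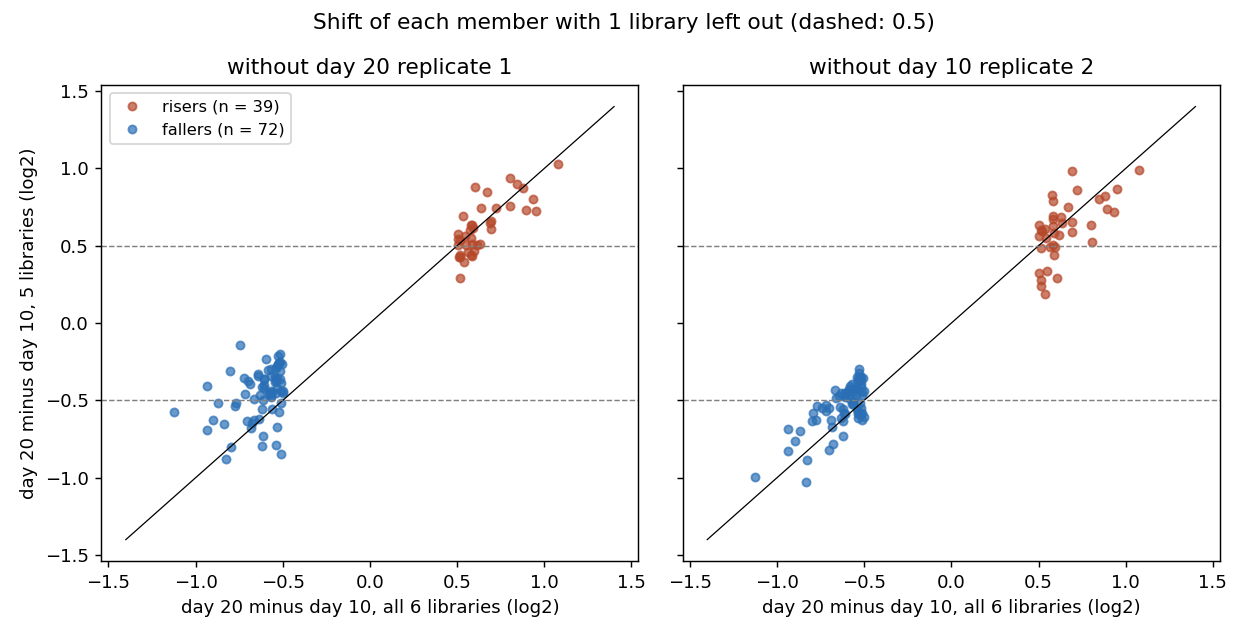
Day 20 minus day 10 of each member on the centred log2 scale, with all 6 libraries of the 2 ages (horizontal axis) and with 1 library left out (vertical axis), for day 20 replicate 1 (left) and day 10 replicate 2 (right). The diagonal marks no change and the dashed lines the threshold of 0.5. Without day 20 replicate 1, 23 of 72 fallers and 30 of 39 risers stay past 0.5, and every member keeps its sign. Members were chosen for a difference of at least 0.5 over these same libraries, so a kept sign says little about stability.

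A set of fallers was low in day 20 replicate 1 and day 40 replicate 3 together. Dyb (dystrobrevin, a link between the membrane and the actin cytoskeleton) was the clearest. It had 265, 593 and 894 CPM at day 20, against 849.9, 980.5 and 907 CPM at day 10. Replicates 1 and 2 were below all day 10 libraries at that age and replicate 3 was not, and the 3 day 25 libraries (521, 488 and 515 CPM) were all low and close together. At day 40 it had 695, 534 and 281 CPM. CG4168 showed the same picture, with 258, 564 and 746 CPM at day 20, against 761, 880.0 and 657 CPM at day 10. CG42795 had 825, 1151 and 1456 CPM at day 20, against 1307, 1597 and 1481 CPM at day 10, and 671 CPM in day 40 replicate 3. CG34134 had 22.4, 31.5 and 36.4 CPM at day 20, against 49.98, 52.97 and 38.6 CPM at day 10, and 10.7 CPM in day 40 replicate 3. In all, 16 of 72 fallers (22.2%) were at least 0.5 lower in both of these libraries than in the other 2 of their age, against 2.38% of all genes. The others chosen by this view after seeing the values included CG5535, CG8419 and Shrm (shroom, an actin-binding protein). The values of both libraries were used by the rule, so nothing is read from the excess over all genes. Without both libraries the rule gave 39 fallers (15 of them among the 72) and 38 risers (20 of them among the 39). This alternative was added after seeing the data.

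The most abundant fallers also included Doa and OtopLa. Doa is a kinase that phosphorylates splicing factors of the SR class. It had 1276, 1736 and 2244 CPM at day 20, against 1979.8, 2869.7 and 2022 CPM at day 10, with overlap. Arglu1 was a faller at -0.53, and every later library lay below day 10 on the centred scale. OtopLa, a proton channel of the otopetrin family, had 966, 1326 and 1592 CPM at day 20, against 1733, 2013 and 1581 CPM at day 10, and from day 25 on none of its libraries exceeded 1171 CPM. Of 24 tested genes in the list of RNA processing and splicing, edgeR called 0 higher and 3 lower for days 20 to 40 against day 10 (2.71% of all genes were called lower), and none of its genes was a member.

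Other large differences among fallers were those of asRNA:CR43959, CG12541 and Tsp. The antisense RNA asRNA:CR43959 lies opposite Hk, a potassium channel subunit gene. It had 6.75, 8.17 and 13.9 CPM at day 20, against 19.2, 22.3 and 11.01 CPM at day 10. CG12541 had 21.6, 30.6 and 40.0 CPM at day 20, against 69.1, 57.3 and 34.4 CPM at day 10. In both genes day 10 replicate 3 overlapped the day 20 libraries. Tsp (thrombospondin, a matrix protein) was more even, with 36.4, 29.2 and 29.6 CPM at day 20, against 51.2, 43.8 and 62.0 CPM at day 10. Its difference of -0.83 ranged from -0.89 to -0.78 when any 1 library of these ages was left out.

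Signalling and trafficking genes completed the fallers with known roles. DopEcR, a receptor for dopamine and ecdysone, Cbl, the ubiquitin ligase that silences receptor tyrosine kinases, capu, a formin that nucleates actin, and Pur-alpha, a nucleic acid binding protein, each had all 11 later libraries below day 10 on the centred scale. Exn (ephexin), Syx4 (a syntaxin) and Nca (neurocalcin) overlapped day 10. The gene zyd, which encodes an exchanger of sodium, calcium and potassium known from glia, had 24.1, 23.7 and 24.9 CPM at day 20, against 26.4, 24.9 and 47.9 CPM at day 10, with day 10 replicate 3 far above every other library of the 2 ages. CG3719 had 14.7, 16.1 and 14.5 CPM at day 20, against 15.98, 19.9 and 24.4 CPM at day 10. The faller IDs FBgn0044510 and FBgn0053123 had no entry in the annotation used. The 4 noncoding fallers were asRNA:CR43959, lncRNA:CR44301, lncRNA:CR44360 and lncRNA:CR44946, of which lncRNA:CR44360 lies within DopEcR on the same strand, so that neither can be counted apart from the other with certainty. The same doubt holds for lncRNA:CR44301, which overlaps CG33144 on its own strand, and for CG17600 (with CG17598), Nca (with CG7646) and CG32052 (with Ilp2). It also holds for CheB42c (with mim), CG42395 (with LPCAT), CG32855 (with Mhcl), CG30323 (with Orai) and CG42556 (with tweek).

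How far the members depend on single libraries differed between risers and fallers. Day 20 replicate 1 was the lowest of the 3 day 20 libraries in 56 of 72 fallers (77.8%, against 41.05% of all genes), and day 10 replicate 2 was the highest day 10 library in 46 (63.9%, against 39.7%). The rule used these values too, so the excess over all genes is a description only. Without day 20 replicate 1, 23 of 72 fallers kept a difference of at least 0.5 and their median was -0.44. Without day 10 replicate 2, 39 did. The number of members moved as well when the rule was applied afresh: without day 20 replicate 1 it gave 32 fallers, of which 14 were among the 72, without day 20 replicate 2 it gave 152, without day 20 replicate 3 it gave 138 fallers and 67 risers, and without day 10 replicate 3 it gave 194 fallers and 81 risers. Risers kept it in 28 to 34 of 39 cases for each of the 6 libraries. The rule asked for a difference of at least 0.5 in these same libraries. Dropping the centring moved each difference by only 0.13. A kept sign therefore says little about stability. All 111 members kept their sign whichever library of the 2 ages was left out, and under every other scaling tried. A difference of at least 0.5 in all 6 of these settings was found for 15 risers (CG9747, hui, Gld, CG34227, Spn88Ea, rod, tn, hry, Rif1, Act42A, CG10211, asRNA:CR45139, CG7255, CG4757 and MCPH1). It was found for 11 fallers (JhI-21, asRNA:CR43959, CG12541, Thor, Tsp, inaF-D, CG34134, lncRNA:CR44301, goe, CG17600 and AP-2sigma). When each of the 14 libraries was left out and the whole rule applied again, 7 risers (CG9747, Spn88Ea, rod, tn, hry, CG10211 and CG7255) and 1 faller (goe) were members every time.

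**Figure D5:**
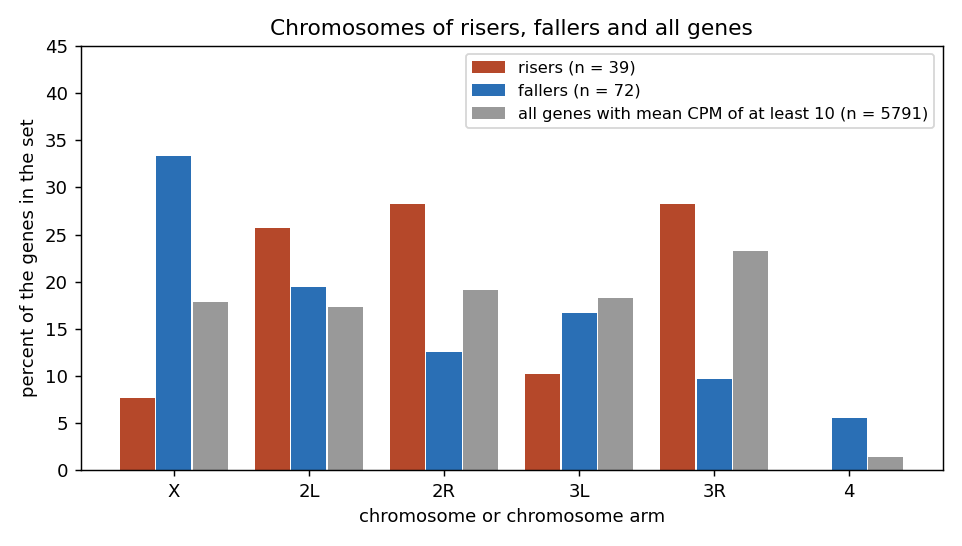
Share of genes (vertical axis, percent) on each chromosome or chromosome arm (horizontal axis) for the 39 risers, the 72 fallers and all 5791 genes with a mean CPM of at least 10. On X lie 7.69% of risers and 33.3% of fallers, against 17.8% of all genes.

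Position and gene structure were not used by the rule. Of the fallers 24 of 72 (33.3%) lay on X, against 17.8% of all genes of mean CPM of at least 10, and 4 lay on the small chromosome 4 (5.56%, against 1.42%). These 4 were Pur-alpha, dati, Slip1 and Ekar, and the count was not stable: selection without day 20 replicate 1 gave 1 of 32 fallers on chromosome 4, and without day 10 replicate 2 it gave 0 of 64. Of the risers 3 of 39 (7.69%) lay on X and none on chromosome 4, with 5 of 39 (12.8%) on X without day 20 replicate 1 and 5 of 53 (9.43%) without day 10 replicate 2. The X share of fallers was 34.4% of 32 when day 20 replicate 1 was left out of the selection and 31.3% of 64 without day 10 replicate 2. The median shift of all X genes was -0.02, against -0.03 over all genes, while that of the 82 genes of chromosome 4 was -0.19. Fallers were also rich in introns: the median ratio of gene span to summed exon length was 2.41 in fallers and 1.38 in risers, against 1.39 over all genes. This did not hold in every selection, since it was 1.35 without day 20 replicate 1 and 2.08 without day 10 replicate 2. Fallers covered a wide range of levels, with 28 of 72 (38.9%) at a mean of at least 100 CPM, against 28.7% of all genes. Of neighbouring members less than 20000 bp apart there were 5 pairs. In 4 of them both genes were fallers (lncRNA:CR44360 within DopEcR, CG34134 and CG8419, CG5162 and baz, Slip1 and Ekar), and in the other the faller Tsp lay 13444 bp from the riser Spn27A.

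The gene lists held few members. Of 27 lists of cell type markers and functions, 9 members fell in 7 lists: Mhc (muscle), hry (activity-regulated transcription), t (synapse), Thor (DNA repair and stress), Gbeta76C and rtp (vision), oc (photoreceptor fate) and eys and baz (rhabdomere and polarity). The list of antimicrobial peptides could hold no member, since 0 of its genes had a mean CPM of at least 10. No member came from the lists of heat shock proteins, clock genes, chromatin or proteasome, although several of these lists had called genes. For day 40 against day 10, edgeR called 8 of 19 heat shock and chaperone genes higher, beside 5.78% of all genes. In the synapse list it called 10 of 29 genes lower (4.64% of all genes) and 0 higher for that contrast. The 10 included t, whose values were used by the rule. In the list of DNA repair and stress edgeR called 9 of 20 genes higher and 0 lower. Thor was thus a faller in a list whose called genes were all higher.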

How the data were processed

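The authors trimmed reads, aligned them to BDGP6 with TopHat, counted pairs per gene with HTSeq in strand-specific mode, and deposited raw counts for 17558 genes. They also deposited CPM for 7635 filtered genes, which equals the filtered counts divided by their column total with no further scaling. Here the members were chosen from the deposited CPM, and the tests were run on the deposited raw counts (edgeR 4.0.16, R 4.3.3, TMM scaling, 1 mean per age, genes with CPM over 1 in at least 3 libraries). Alternatives included DESeq2 1.42.0, limma-voom, other scalings and thresholds, and leaving out each library. Summary lines that name no gene were left out; they made up 77.6% to 87.7% of each raw count column, mostly pairs with several alignments. For columns numbered 1 and 2 the labels give the age and not the sample. The members and gene lists were chosen with earlier results of these data known. Genes named with values were the 10 largest shifts and the 6 highest means in each direction, the members in fixed lists and those nearest the threshold; others were added after their values were seen. Symbols and positions came from Ensembl 115 (BDGP6.54), in which 7459 of the 7635 genes were found, and its gene models can differ from the authors'. Of 493 entries in 27 lists, 477 matched. The selection and tests were tested on simulated data. Floors cover counting error only, because the libraries carried no molecular identifiers, and p-values cover the spread between these libraries. Some members are not reported here by name.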

Additional observations from a re-analysis of the deposited data

Results flagged for a closer look

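The discarded day 30 replicate 3 held 518520 gene counts and was used in no mean. On the centred log2 scale 28 of 39 risers and 60 of 72 fallers lay on the later side of the midpoint between their day 10 mean and the mean of the 4 later ages in this library. Its medians relative to day 10 were 0.61 for risers and -0.58 for fallers. Both means behind the midpoint were used by the rule, and members were chosen for a wide gap between them, so the counts describe this single shallow library and are no independent check of the members.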

How the results depend on the processing

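Every member kept the sign of its day 20 difference under each scaling tried and without any 1 library of days 10 and 20. The rule asked for at least 0.5 in these same libraries, so a kept sign says little about stability. Membership depended on the settings. Without centring the rule gave 104 risers and 27 fallers. A mean CPM of at least 5 gave 71 risers and of at least 20 gave 21. A difference of at least 0.75 left 8 risers and 11 fallers, later ages within 0.25 left 21 and 32, and later ages within 0.5 gave 110 fallers. Medians of libraries in place of means gave 55 risers and 74 fallers, of which 16 and 25 were members. Leaving out 1 library gave 29 to 81 risers and 32 to 194 fallers. Leaving out both day 20 replicate 1 and day 40 replicate 3, added after seeing the data, gave 39 fallers, of which 15 were members. Of 342 values of 38 named members under alternatives, 339 moved by less than 1 SD of the replicates within an age. This count says little about stability, because leaving out 1 of 3 libraries cannot move a difference by that SD. JhI-21 went from -1.13 to -0.57 without day 20 replicate 1 and was not counted as moved.

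The edgeR test called 1 gene between days 20 and 10, 121 between days 40 and 20, 1112 between days 40 and 10 and 543 for days 20 to 40 against day 10. Between days 20 and 10 the count was 2 with DESeq2 size factors, 2 in the filtered gene set, 49 with DESeq2, 0 with limma-voom and 128 with no filter. DESeq2 called 371 and no filter 494 between days 40 and 20, and 960 and 982 for days 20 to 40 against day 10. Leaving out 1 library gave 0 to 27 (days 20 and 10), 50 to 232 (days 40 and 20), 542 to 1252 (days 40 and 10) and 113 to 766 (days 20 to 40 and 10). The lowest of these, 542 and 113, came without day 10 replicate 2. The cause of these differences was not tested. Between days 10 and 20 the deviations of same-numbered libraries had r of -0.10, 0.09 and -0.06, and those of differently numbered ones -0.17 to 0.21. Deviations within an age depend on each other, so these values cannot decide whether the numbers pair samples. With a replicate block the counts were 4, 73, 863 and 314. The calls for days 20 to 40 against day 10 then held 9 risers and 25 fallers. At low depth, 3 counts were worth up to 0.483 CPM.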
